A study of Mus musculus with 6 samples.

Results

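The stretches of chromatin compared here are the acetylated regions that the Cell Signaling antibody found in both of its libraries, divided by whether the Active Motif antibody also gave a peak there. Overlapping peaks of the 2 Cell Signaling libraries on chr1 to chr19 and X were merged into 58035 stretches, and the 29277 stretches that held a peak of each library were kept. They are called shared regions. A shared region overlapped by at least 1 bp of an Active Motif peak was counted as with a peak, which gave 18015 regions with and 11262 without, or 61.5% with (95% Wilson interval 61.0 to 62.1%). Regions were sorted by width into 10 groups of equal size, numbered from the narrowest (width group 1) to the widest (width group 10), and regions with and without an Active Motif peak were compared within each group. The members were selected on measured values, the peak overlaps of the 3 lists, and grouped on their width, so neither is a result, and the enrichment of the peaks comes from the same libraries and is given as description.

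H3K27ac was profiled by HT-ChIPmentation in alveolar macrophages (AMs) that were sorted from bronchoalveolar lavage of adult wild-type C57BL/6J mice. The series holds 6 samples. They are 1 library made with the Active Motif antibody #39135, 2 made with the Cell Signaling antibody #8173, and 3 input libraries with no antibody, for which no peak list was analysed here. All groups share the wild-type genotype and the cell type, and the sources used here do not say whether a library came from separate mice or a pool. The label of the Active Motif library names its target as H3, while the methods name H3K27ac as the mark profiled. With 1 Active Motif library there is no replicate check between antibodies, and no p-value is given. Antibody and library cannot be told apart in this design, nor can any difference in sequencing run, sonicator or depth. The methods list H3K27ac under both sonicators of the study without saying which library used which. Every interval covers counting error over regions only, and neighbouring regions are not independent.

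Acetylation of lysine 27 on histone H3 is laid down by the co-activators p300 and CBP and marks active promoters and active enhancers. Promoters of broadly expressed genes often lie in CpG islands, stretches rich in the CpG dinucleotide, whereas enhancers are mostly CpG-poor and carry sites of lineage factors such as PU.1, C/EBP and AP-1. AMs clear surfactant and debris from the airspace, and their identity depends on GM-CSF, TGFβ and the nuclear receptor PPARγ. In HT-ChIPmentation the Tn5 transposase adds sequencing adapters to chromatin on the antibody beads. A peak is a stretch where reads exceed the local background, and its fold is the ratio of reads to that background.

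The Active Motif list held 36364 peaks over 26.1 Mb, and the median peak was 341 bp wide with a fold of 5.97. Cell Signaling replicate 1 held 56175 peaks over 45.8 Mb, where these medians were 267 bp and 5.38. Replicate 2 held 49139 peaks over 59.8 Mb, where they were 629 bp and 7.19. The lists therefore differ in how much chromatin they cover as well as in the width of their peaks, and read depth was not used here. As a check of the cell type, all 8 AM markers had a promoter peak in each library, among them Siglecf, Marco and Pparg. Of 18 alveolar epithelial markers 1 had a promoter peak in the Active Motif list, 8 in replicate 1 and 5 in replicate 2, and of 12 airway markers 1, 7 and 1. Their part in the results was not tested.

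Sequences from 5 shared regions show what the comparison is made of. Each is 300 bases of the plus strand of mm10, from the GRCm38 assembly of RefSeq, centred on the strongest summit of replicate 1, with CG dinucleotides in capitals. The first pair was chosen after values were seen, from width group 5, where the shares with a peak differed most by position. Each member has the median CpG number of its kind. The region nearest Tm2d1 (chr4:98382847-98383146) lies at a promoter and had an Active Motif peak, and it holds 17 CpG. The region nearest Qrsl1 (chr10:43752357-43752656) lies in an annotated exon, 149 kb from the nearest protein-coding TSS, and had none, and it holds 3 CpG.
Tm2d1, promoter, with: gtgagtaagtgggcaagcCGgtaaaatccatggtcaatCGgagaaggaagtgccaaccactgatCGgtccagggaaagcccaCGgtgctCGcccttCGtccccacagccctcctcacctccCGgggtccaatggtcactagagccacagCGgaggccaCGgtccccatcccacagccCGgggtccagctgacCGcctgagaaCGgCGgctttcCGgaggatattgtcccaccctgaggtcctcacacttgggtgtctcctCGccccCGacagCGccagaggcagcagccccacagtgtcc
Qrsl1, distal, without: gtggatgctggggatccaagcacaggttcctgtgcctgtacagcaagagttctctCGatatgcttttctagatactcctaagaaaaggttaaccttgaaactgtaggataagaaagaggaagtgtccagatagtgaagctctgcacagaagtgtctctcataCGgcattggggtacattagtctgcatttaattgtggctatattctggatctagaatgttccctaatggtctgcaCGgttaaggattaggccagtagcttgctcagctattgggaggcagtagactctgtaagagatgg

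The other 3 sequences are the widest proximal and the widest distal region without an Active Motif peak, the latter beside a region of equal width with one. The widest such region within 3 kb of a TSS lay in an intron at Tg, with its window at chr15:66795634-66795933. The widest farther from a TSS lay in intergenic sequence nearest Kmt5c, at chr7:4735031-4735330, and its partner in an intron nearest Rnf217, at chr10:31544373-31544672. These windows hold 2, 2 and 3 CpG, so here, in contrast to the pair above, the CpG number hardly separates regions with and without a peak.
Tg, without: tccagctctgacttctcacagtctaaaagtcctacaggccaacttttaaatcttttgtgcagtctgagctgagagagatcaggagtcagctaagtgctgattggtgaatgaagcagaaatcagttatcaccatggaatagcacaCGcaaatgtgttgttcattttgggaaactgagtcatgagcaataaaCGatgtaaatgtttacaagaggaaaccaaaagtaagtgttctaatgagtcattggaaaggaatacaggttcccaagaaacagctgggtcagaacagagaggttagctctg
Kmt5c, without: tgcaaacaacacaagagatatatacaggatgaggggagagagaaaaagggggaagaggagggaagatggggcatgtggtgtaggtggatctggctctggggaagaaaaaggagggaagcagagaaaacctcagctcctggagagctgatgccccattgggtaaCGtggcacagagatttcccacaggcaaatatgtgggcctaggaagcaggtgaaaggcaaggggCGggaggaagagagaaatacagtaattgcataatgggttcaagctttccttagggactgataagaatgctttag
Rnf217, with: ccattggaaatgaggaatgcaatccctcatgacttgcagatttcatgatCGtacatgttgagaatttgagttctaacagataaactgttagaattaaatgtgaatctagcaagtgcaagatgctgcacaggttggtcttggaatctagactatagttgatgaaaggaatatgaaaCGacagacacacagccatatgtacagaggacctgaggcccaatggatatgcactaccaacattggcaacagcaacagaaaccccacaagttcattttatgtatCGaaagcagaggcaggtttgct

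The wide regions were built differently with and without a peak. At Tg, where the region was 3649 bp wide, replicate 1 had 5 separate peaks that covered 39.5% of the region with a highest fold of 7.30, and replicate 2 had 1 peak over all of it at a fold of 11.8. The distal pair were both 4412 bp wide. Near Kmt5c, replicate 1 had 5 peaks over 29.6% of the region, and the folds were 5.77 and 10.2 in replicates 1 and 2. Near Rnf217, replicate 1 covered 96.0% of the region, the folds were 42.3 and 28.7, and the Active Motif library had 3 peaks with a highest fold of 15.8. In this pair the region without an Active Motif peak had the lower fold in both Cell Signaling replicates.

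**Figure D1:**
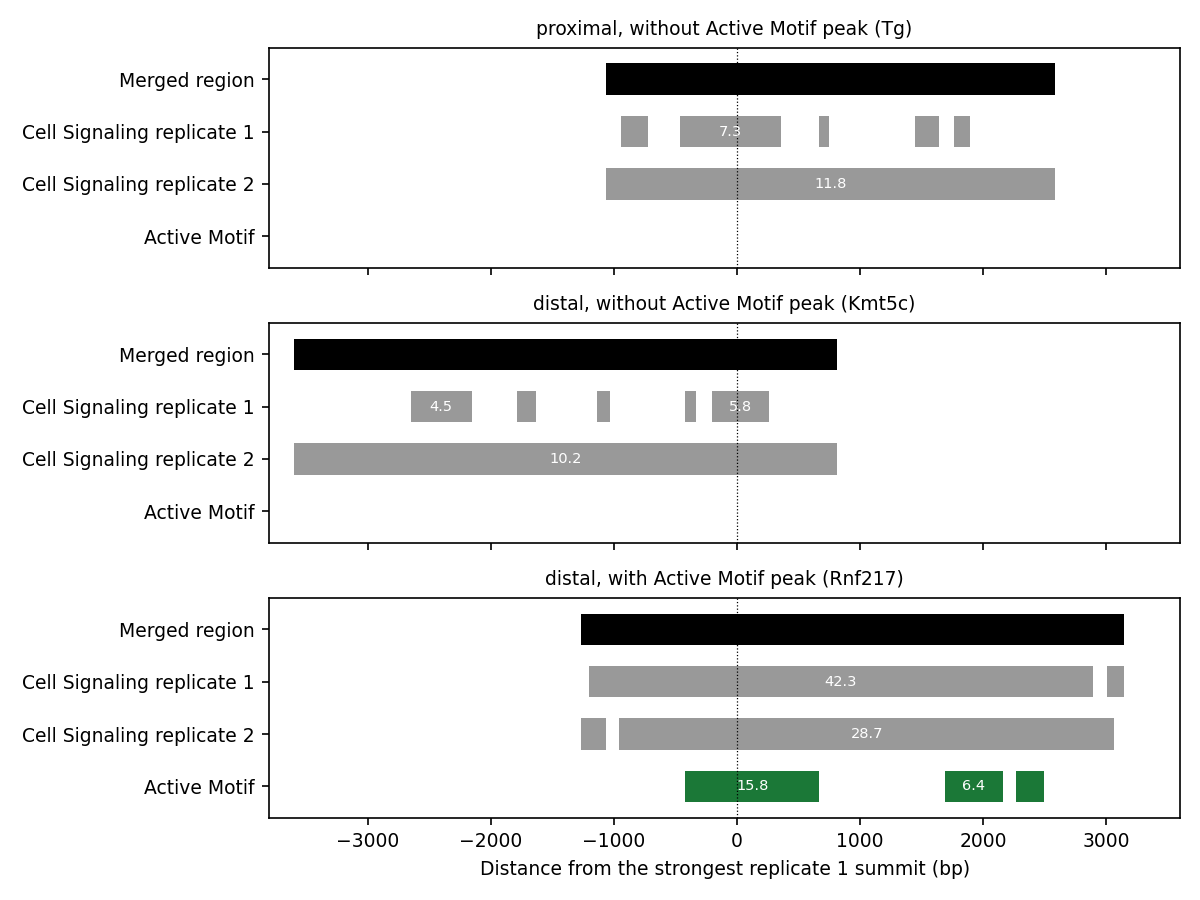
Peaks of the 3 libraries in 3 shared regions, plotted by distance in bp from the strongest replicate 1 summit. Black bars are the merged regions, grey bars Cell Signaling peaks and green bars Active Motif peaks, and the number in a bar wide enough to hold it is the peak's fold. The regions at Tg and near Kmt5c hold 5 short replicate 1 peaks each, and the one near Rnf217, as wide as that near Kmt5c, holds a long one.

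At matched width, regions with an Active Motif peak lay closer to transcription start sites (TSSs) than regions without. Regions centred no more than 3 kb from the TSS of a protein-coding gene are called proximal, and all others distal. Of 10768 proximal regions, 78.3% (95% Wilson interval 77.5 to 79.1%) had a peak, and of 18509 distal regions 51.8%. The proximal share was the higher in each of the 10 width groups. In width group 1 (80 to 401 bp) 8.50% of proximal and 3.80% of distal regions had a peak, and in group 3 (666 to 912 bp) 42.5% and 20.2%. The gap was widest in group 5 (1144 to 1385 bp), at 83.3% (81.0 to 85.4%) against 52.6% (50.3 to 54.9%), or 30.7 percentage points. It closed in the wider groups, with 96.3% and 82.0% in group 7 and 99.5% and 96.6% in group 9. In group 10 (3885 to 49042 bp) all 1139 proximal regions had a peak, and 7 of 1788 distal regions had none.

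Combined over the width groups, the odds of an Active Motif peak were 3.70 times higher in proximal than in distal regions (Mantel-Haenszel odds ratio, 95% interval 3.43 to 4.003). Without regard to width the ratio was 3.36. It was 3.67 over the peaks of replicate 2 with replicate 1 left out, and 2.38 over those of replicate 1 with replicate 2 left out. The ratio was larger in the wider groups, from 2.35 (1.67 to 3.31) in group 1 through 4.50 (3.75 to 5.41) in group 5 to 6.72 (3.05 to 14.8) in group 9, where the shares themselves were close. The share with a peak fell with distance up to 3 kb. It was 82.2% for regions centred within 1 kb of a TSS, 61.3% at 1 to 3 kb, and between 50.4% and 52.8% in the bins beyond. At matched width, the odds for regions with their midpoint within 1 kb of a TSS, called promoters, against all others were 4.66 (4.28 to 5.08). At 1 to 3 kb they were 0.799 (0.683 to 0.935), at 3 to 10 kb 0.574 (0.523 to 0.630), at 10 to 50 kb 0.565 (0.525 to 0.607) and beyond 50 kb 0.604 (0.553 to 0.659). Beyond 3 kb the odds therefore did not fall further with distance. In width group 5 the median distance to a TSS was 3.70 kb with a peak and 17.0 kb without.

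The genomic features divided in the same way. Of 8747 promoter regions 82.2% had an Active Motif peak, of 12569 intronic regions 52.4%, of 6799 intergenic regions 52.7% and of 1162 exonic regions 56.1%. At matched width the odds were 0.416 (0.388 to 0.446) for introns, 0.719 (0.665 to 0.777) for intergenic sequence and 0.743 (0.626 to 0.882) for exons, each against all other regions. In width group 5 promoters made up 45.0% of regions with a peak and 12.6% of those without, and introns 30.4% and 54.9%. In width group 10 promoters were 17.6% and introns 58.0% of the 2920 regions with a peak.

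**Figure D2:**
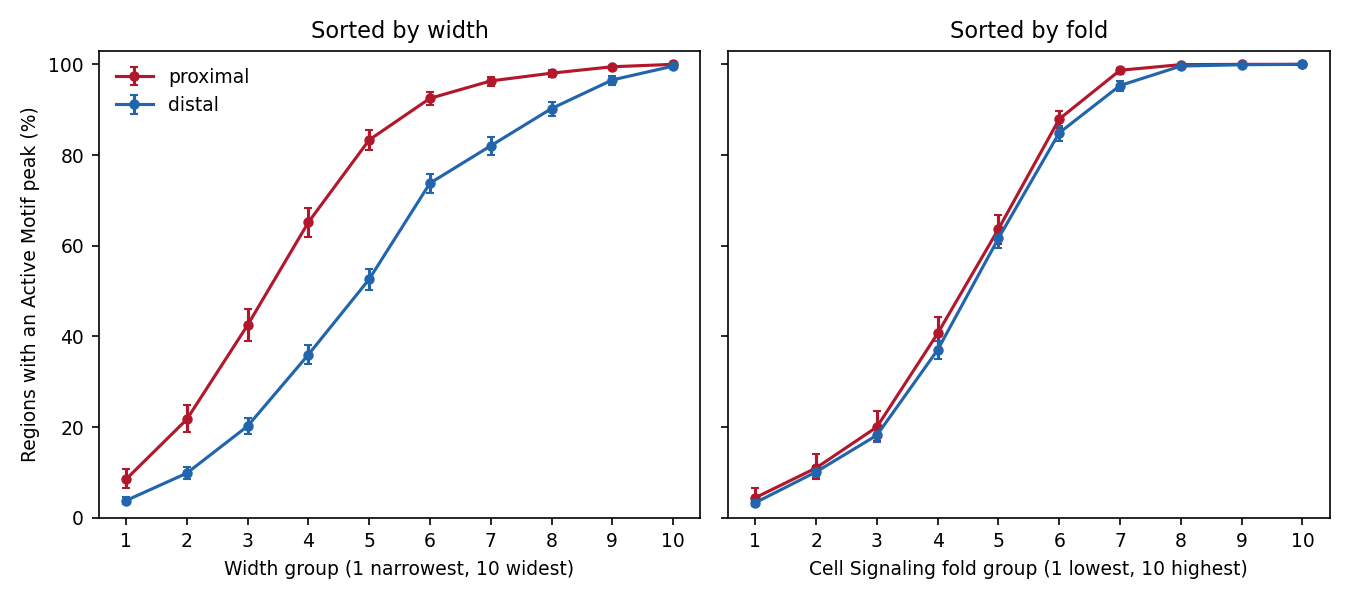
Share of shared regions with an Active Motif peak (%, with 95% Wilson intervals) for proximal and distal regions, by group of region width on the left and by group of the higher Cell Signaling fold on the right (each 10 groups of equal size). By width the lines part by up to 30.7 points in group 5, and by fold they run close together, with 63.7% and 61.7% in group 5.

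The position difference was much smaller between regions of equal fold. When regions were sorted by the higher of their 2 Cell Signaling folds instead of width, 63.7% of proximal and 61.7% of distal regions had an Active Motif peak in group 5 of fold (folds 12.2 to 15.8), and 40.7% and 37.0% in group 4. The odds ratio at matched fold was 1.21 (1.11 to 1.33). At equal fold proximal regions were the narrower, with median widths of 1161 and 1345 bp in group 5 of fold. With width and fold matched together, each in 5 groups, the odds ratio was 1.73 (1.58 to 1.89), and with the fold of 1 replicate alone it was 1.86 (1.71 to 2.02) for replicate 1 and 1.18 (1.08 to 1.29) for replicate 2. Among regions with a peak, the Active Motif fold was the same at both positions in group 5 of fold (median 5.54 each) and 10.2 against 9.80 in group 8. In group 8 of fold the Active Motif peaks covered a median of 58.2% of the width of proximal and 50% of that of distal regions.

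Fold and width did not go together in the same manner in regions with and without a peak. In width group 5, regions with an Active Motif peak had median folds of 11.1 and 18.1 in replicates 1 and 2, and those without 6.92 and 10.3. From width group 4 to 9 the median replicate 2 fold rose from 14.8 to 30.2 in regions with a peak, but from 9.09 to 11.7 in those without. Wide regions without a peak were also broken up in replicate 1. In width group 9 they held 3.40 replicate 1 peaks each, which covered a median of 52.2% of the region, against 1.91 peaks and 85.4% in regions with a peak. In replicate 2 the means were 1.19 and 1.06 peaks.

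The libraries of 1 antibody differed from each other less by position than either did from the Active Motif library. Among replicate 2 peaks of matched width, the proximal odds of overlap with an Active Motif peak were 3.67 (3.42 to 3.94) and with a replicate 1 peak 1.52 (1.42 to 1.62). Among replicate 1 peaks they were 2.38 (2.25 to 2.53) for the Active Motif library and 1.10 (1.04 to 1.16) for replicate 2. At matched fold the replicate 2 peaks gave 1.22 (1.13 to 1.32) and 0.968 (0.905 to 1.03). The replicate 1 peaks gave 1.60 (1.51 to 1.697) and 0.992 (0.940 to 1.05). The Active Motif list is also the shortest of the 3, and the part of its length in these differences was not tested. With each list cut to its 36364 strongest peaks, the Active Motif odds for the shared regions at matched width were 3.72. The odds between the Cell Signaling replicates were not recomputed on such lists, so this value does not bear on that comparison.

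**Figure D3:**
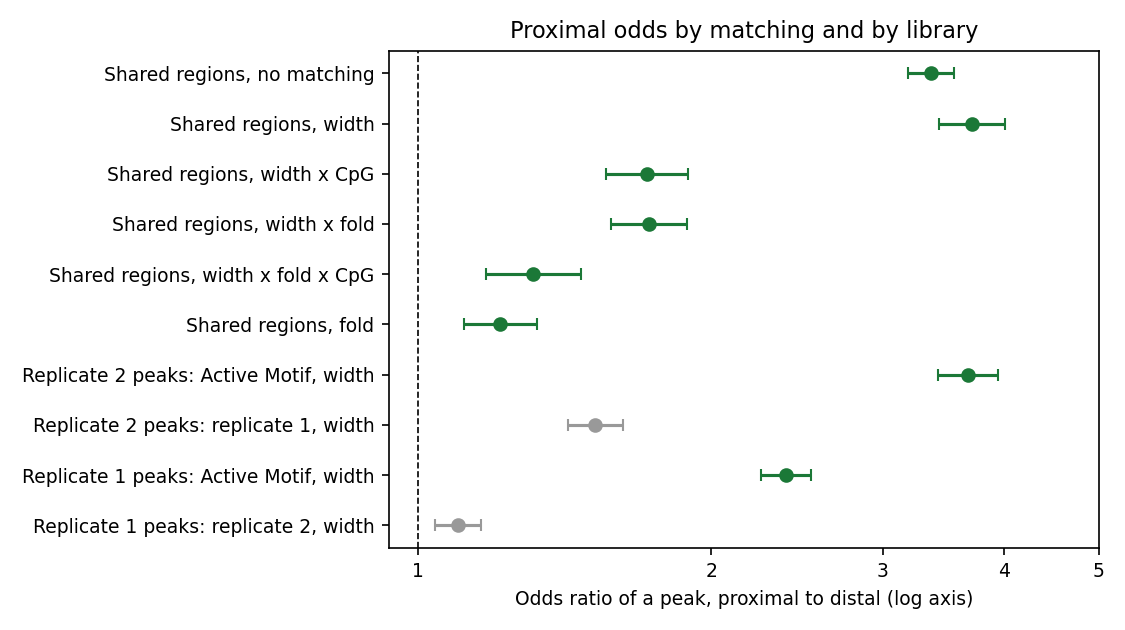
Odds ratio of a peak in proximal against distal regions (log axis, points with 95% intervals over regions), for shared regions under each matching and for the peaks of each Cell Signaling library at matched width. Grey points compare the 2 Cell Signaling libraries, at 1.52 and 1.10, and lie below the green points for the Active Motif library on the same peaks, at 3.67 and 2.38.

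Regions with an Active Motif peak were also richer in CpG at the summit. The mean number of CpG in the 300 bp window, averaged over the width groups, was 10.1 with a peak and 4.52 without, a difference of 5.60 (SE 0.172). In group 5 it was 11.1 (SEM 0.239, n = 1876 regions) and 4.98 (SEM 0.182, n = 1052). Regions without a peak had 3 CpG at the median in each of width groups 1 to 9, and regions with one had between 5 and 7. Width group 10 had 7 regions without a peak, and leaving it out gave a difference of 5.81. A summit with at least 10 CpG had 4.90 times the odds of a peak at matched width (4.48 to 5.36). The CpG difference was 1.74 (SE 0.184) at matched fold and 2.62 (SE 0.290) at matched width and fold. The share of bases in repeats was 12.3% with and 16.7% without a peak in width group 5, but 26.9% and 22.4% in group 1.

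CpG and position overlapped without being the same. Of 6916 proximal regions with at least 10 CpG, 85.2% had an Active Motif peak, where the shares of their width groups give 72.7%. For 3852 proximal regions with fewer CpG the shares were 65.9% and 64.3%. For 974 distal regions rich in CpG they were 65.0% and 59.0%, and for the 17535 distal regions with fewer CpG 51.0% and 56.7%. Of the 4 kinds, CpG-rich proximal regions stood furthest above what their width gives, and CpG-poor distal regions were the kind below it. At matched width the CpG odds were 3.13 (2.73 to 3.59) among proximal and 2.52 (2.10 to 3.03) among distal regions, and 1.93 and 1.26 with fold matched as well. The proximal odds were 2.09 (1.71 to 2.55) among CpG-rich and 1.89 (1.69 to 2.11) among CpG-poor regions. With fold matched as well they were 2.20 (1.74 to 2.80) and 1.24 (1.09 to 1.40), so the position difference was smaller at equal fold among CpG-poor but not among CpG-rich regions. With width, fold and CpG all matched the proximal odds were 1.31 (1.17 to 1.47).

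**Figure D4:**
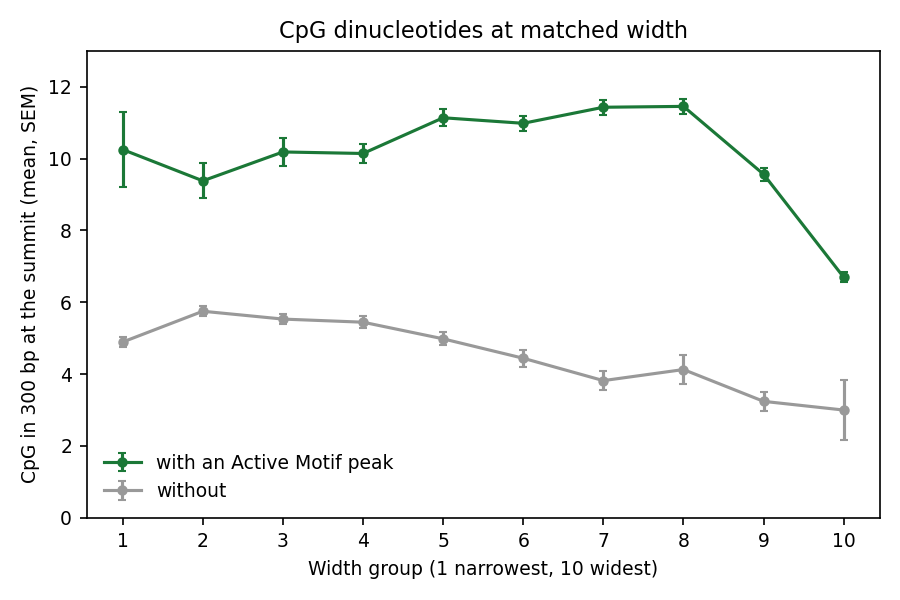
Mean number of CpG dinucleotides in 300 bp at the strongest replicate 1 summit, by group of width, for regions with and without an Active Motif peak (bars, SEM over regions). Regions with a peak lie higher in all 10 groups, 11.1 against 4.98 in group 5, and the point without a peak in group 10 rests on 7 regions.

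Several motifs that hold a CG dinucleotide were the more frequent with a peak at matched width. Both strands of the 300 bp windows were searched for 19 motifs, and the values below are shares averaged over the width groups, with SEs over regions. The 7 regions without a peak in group 10 therefore weigh as much in the shares without a peak as all such regions of any other group. GGGCGG, the GC box bound by SP and KLF factors, was found in 17.6% of all windows, in 22.1% with an Active Motif peak and in 9.82% without (difference 12.3 points, SE 1.57). Among proximal regions the shares were 42.1% and 25.1%, and among distal regions 6.89% and 6.23% (difference 0.657, SE 1.51). The ETS motif CCGGAAGT, in 2.40% of all windows, stood in 2.94% with and 0.772% without a peak (SE 0.170). The E2F motif TTCCCGC, in 2.77% of all, stood in 3.46% and 1.04% (SE 0.230), and the cAMP response element TGACGTCA, in 0.984% of all, in 1.13% and 0.236% (SE 0.0922). These 4 motifs may overlap in CpG islands. CCAAT, the NFY motif, which holds no CG, stood in 32.7% of all windows and in 32.4% with and 33.6% without a peak (SE 2.25). With width, fold and CpG matched, the difference for GGGCGG was -1.78 points (SE 0.675), that is, lower in regions with a peak. Under this matching the cAMP response element differed by 0.498 points (SE 0.172), the ETS motif by 0.0954 (SE 0.414) and the E2F motif by -0.610 (SE 0.735). The YY1 motif differed by 0.243 points (SE 0.258), the IRF motif by 0.285 (SE 0.633) and the SMAD motif by 0.311 (SE 0.165).

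The motifs of macrophage lineage factors differed in both directions. The PU.1 motif GAGGAAGT was found in 5.87% of all windows, in 4.95% with and 6.14% without a peak (difference -1.18, SE 0.452), and among distal regions in 6.55% and 6.403% (SE 0.530). The C/EBP motif TTGCNNAA, in 14.1% of all, stood in 14.3% with and 18.7% without a peak (difference -4.36, SE 2.14). Both averages exceed the share of all windows because each width group weighs the same, however few regions of a kind it holds. Width group 10 holds 7 regions without a peak, and width group 1 holds 144 with one. The sign of this difference is therefore uncertain. With width, fold and CpG matched it was 3.14 points more with a peak (SE 0.980). TGTGGTT, the RUNX motif, was found in 7.87% of all, in 7.01% with and 9.02% without a peak (SE 0.623), and in 8.94% and 9.54% of distal windows (SE 0.724). The AP-1 motif TGANTCA, in 11.1% of all, did not differ beyond its error over all regions (10.6% and 10.8%, SE 0.655) and was the more frequent with a peak among distal regions, at 14.3% and 11.9% (SE 0.819). With width, fold and CpG matched the difference over all regions was 1.93 (SE 0.899). The E-box CACGTG, which BHLHE40 and BHLHE41 bind, was found in 5.53% of all, in 6.46% with and 3.48% without a peak (SE 0.377). TCACGTGA, the longer form bound by MITF and TFE factors, which contains that E-box, stood in 0.632% of all and in 0.964% and 0.193% (SE 0.155). Both hold a CG, and with width, fold and CpG matched they differed by 1.91 points (SE 0.858) and 0.599 (SE 0.221). Under that matching the PU.1 motif differed by -1.20 points (SE 0.523) and the RUNX motif by -1.06 (SE 1.21). Of the windows printed above, Tg holds 2 matches to the AP-1 motif and Qrsl1 1 to that of PU.1. No match to the GGGCGG box was found at Tm2d1, whose window holds 17 CpG.

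Read by gene, most acetylated promoters were found by both antibodies. A shared region overlapped the promoter (1 kb either side of a TSS) of 10174 protein-coding genes, and 8948 of them, or 87.9%, also had an Active Motif peak at the promoter. By the width group of the promoter's region the share was 17.9% in group 1, 48.0% in group 3, 86.7% in group 5 and 98.9% in group 10. Several gene lists were complete. All 24 ribosomal protein genes with a shared promoter region had an Active Motif peak there, as had 23 of 23 AM regulators, 26 of 26 lipid metabolism genes, 22 of 22 lysosomal genes, 18 of 18 pan-macrophage genes, 19 of 19 apoptosis genes and 12 of 12 genes of niche signals. These counts stand beside 87.9% of all such genes, and most of these promoters lay in wide regions, whose own shares give 22.1 of the 23 regulators and 23.4 of the 24 ribosomal genes.

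Spi1, which encodes PU.1, had promoter folds of 29.97 in the Active Motif library and 55.4 and 54.4 in Cell Signaling replicates 1 and 2. Pparg, the nuclear receptor of AM lipid handling, had 31.9, 65.7 and 50.4. Bhlhe40, a repressor that sustains AM self-renewal, had 31.5, 60.4 and 48.5. Klf6, a zinc-finger factor, had 45.1, 75.7 and 58.8. The Active Motif fold was the lowest of the 3 at all 4 promoters, and each lay in width group 10. Rxra, which encodes the retinoid X receptor alpha, stood apart from them with 5.71, 13.8 and 52.5, so that the 2 Cell Signaling libraries themselves differed there.

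Genes of the cell cycle made up the largest group of listed promoters without an Active Motif peak. Of 31 with a shared promoter region 19 had one, where the width of those regions gives 25.0. The 12 without were Top2a, Mcm2, Mcm6, Ccnb1, Ccne2, Cdk1, Rrm2, Tyms, Cdc20, Plk1, Cdc6 and Gins2. Top2a, the topoisomerase that resolves chromosomes before mitosis, lay in a region of 1461 bp with folds of 13.8 and 16.8 in replicates 1 and 2. Cdk1, the kinase that drives entry into mitosis, lay in 1243 bp with 8.46 and 12.0, and Mcm2, a subunit of the replicative helicase, in 1214 bp with 9.99 and 18.1. Rrm2, the small subunit of ribonucleotide reductase, had the widest of these regions, at 2461 bp, with folds of 9.61 and 10.4. Ccna2, the S-phase cyclin, had a peak at 8.52 in a region of 1439 bp with 13.5 and 28.7, and Pcna, the sliding clamp of DNA replication, had one at 16.2 in 2656 bp with 31.1 and 35.5. Over all regions nearest to the 32 genes, 50 of 98 had a peak against 54.7 from width, a ratio of 0.915 (0.740 to 1.09), and with width and fold matched the ratio was 0.986. Of these 98 regions 59 were distal. The promoter counts were not matched on fold, so these ratios do not bear on them.

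The AM core list holds genes associated with AMs, not all particular to them, and is not the study's own AM-core set. Of its genes, 33 of 39 with a shared promoter region had an Active Motif peak there, against 37.3 from width. Those without were Ear10, Krt79, Cdh1, Mmp8, Trim29 and Cd63. Krt79, a keratin gene, and Trim29, which encodes a ubiquitin ligase, lay in wide regions of 8147 and 4887 bp, with replicate 1 folds of 65.3 and 43.8 and replicate 2 folds of 49.5 and 35.9. Both regions hold an Active Motif peak elsewhere, as the 7 regions without one in width group 10 do not include them, and a fold belongs to the whole peak. Ear10, an eosinophil-associated ribonuclease gene, lay in 2364 bp with 8.05 and 42.3. It belongs to a family of near-identical copies, so its reads may be shared with other members and its values are uncertain. Cd63, a tetraspanin of late endosomes, lay in 1347 bp with 7.30 and 8.36, Mmp8, a neutrophil-type collagenase, in 1135 bp with 4.23 and 9.83, and Cdh1, which encodes E-cadherin, in 349 bp with 4.997 and 7.07. The last 3 lay in width groups 5, 4 and 1 and had low folds in both replicates.

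Smaller lists had few promoters without a peak. In the inducible inflammatory list 12 of 15 had one, against 13.2 from width, and Il6, Cxcl1 and Ccl4 did not. Il6, an acute-phase cytokine, lay in 782 bp with folds of 6.92 and 11.5, and Cxcl1, a neutrophil chemokine, in 1240 bp with 6.15 and 12.2. In the interferon list 9 of 11 had one, against 8.77 from width, and Oas1a and Zbp1 did not. Zbp1, a sensor of Z-form nucleic acid, lay in 1120 bp with folds of 14.2 and 15.4. In the monocyte list 3 of 6 had one, against 3.80 from width, and Ccr2, Itgam and Ace did not, all in width group 2. Cyc1 was the one housekeeping gene of 20 without, and Ndufa1 the one respiratory chain gene of 20.

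Lists were also counted over all regions nearest to their genes. These counts stand beside 61.5% of all shared regions and 51.8% of all distal regions with a peak. Regions near AM core genes had a peak in 139 of 254, against 155.7 from width, a ratio of 0.893 (0.792 to 0.991). The ratio was 0.931 with width and position matched, 0.939 with width and fold, and 0.820 when width group 10 was left out. The interval held 1 in 8 of 16 alternatives, among them all that matched fold or position and those that left out a replicate (0.899 without replicate 1 and 0.979 without replicate 2). For AM regulators 137 of 229 had a peak (ratio 0.941) and for lipid metabolism genes 85 of 132 (0.956), and with width and fold the ratios were 0.9997 and 1.05. Genes named in the study had 165 of 289, a ratio of 0.886 (0.797 to 0.973), which was 0.998 with width and fold. That list shares members with the AM core and regulator lists. Lysosomal genes had 45 of 57 (ratio 1.10, 0.932 to 1.22) and housekeeping genes 31 of 39 (1.09, 0.882 to 1.22). Over distal regions alone the respiratory chain list stood lowest, with a peak in 2 of 14 where distal regions of those widths give 5.80. Of the 14, 6 lay nearest Uqcrfs1 and 4 nearest Cox6c. The distal counts were 109 of 212 against 114.7 for AM core genes and 31 of 59 against 29.15 for cell cycle genes. For housekeeping genes they were 14 of 19 against 12.0. Apart from the AM core list and the genes named in the study, the intervals of all lists with at least 20 regions held 1 at matched width.

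**Figure D5:**
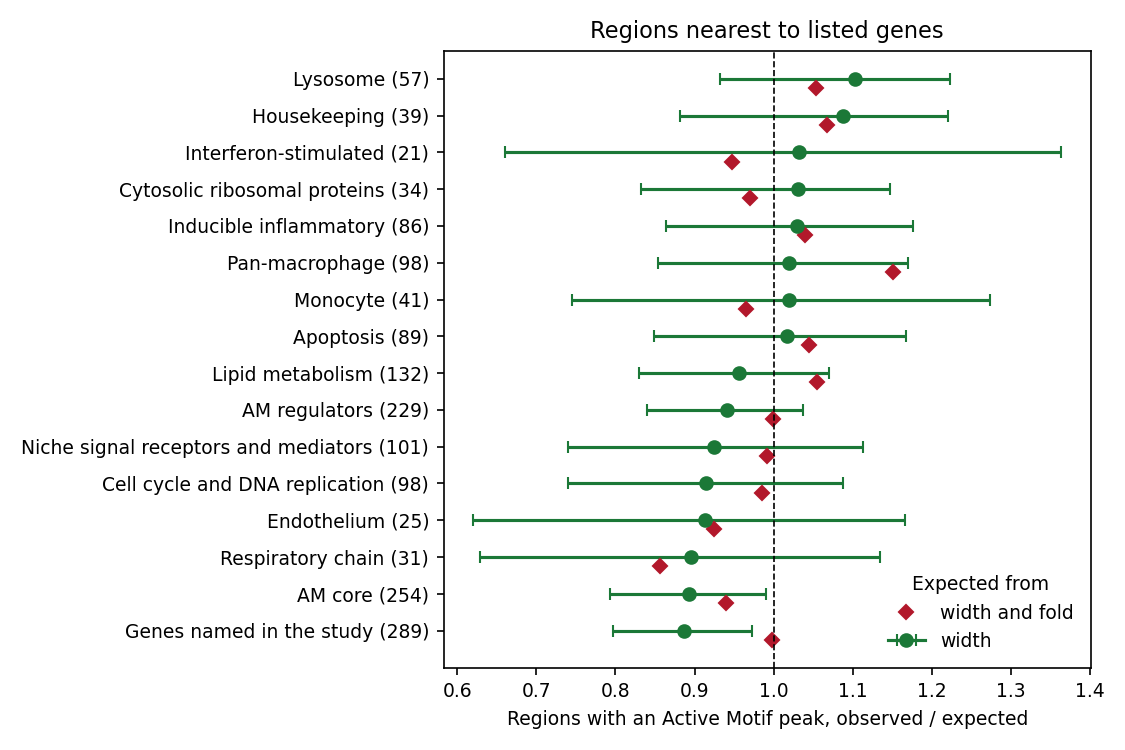
Observed over expected number of regions with an Active Motif peak for the 16 lists with at least 20 regions (number in brackets). Green points with 95% intervals over regions take the expectation from width, and red diamonds from width and fold. Ratios from width run from 0.886 for genes named in the study to 1.10 for lysosomal genes.

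Among genes with many regions, the count near single genes ranged widely at matched width. Of 697 genes with at least 8 regions, 4 had an Active Motif peak in all and 2 in none, and the observed count differed from that given by width by -7.55 to 6.63 regions. Id2, an inhibitor of basic helix-loop-helix factors, stood at the low end, with a peak in 6 of 26 regions against 13.5 from width. With fold matched as well it was 11.6. Rxra had 6 of 17 against 11.2 from width and 8.45 from width and fold, and 5 of its 16 distal regions had a peak. Nedd9, a docking protein of integrin signals, had 13 of 25 against 17.4, Tcf7l2, a Wnt effector, 18 of 33 against 22.1, and Cited2, which binds p300 and CBP, 6 of 20 against 9.94. The other genes among the 10 with the fewest were Svil, Dock4, Fam53b, Zmiz1 and Nabp1. All 10 also had fewer regions with a peak than width and fold together give, by 1.38 (Nabp1) to 5.57 (Id2) regions. They were picked as the lowest of the 697 genes by the difference from width. Their shortfall therefore follows in part from the choice, also with fold matched.

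At the high end stood Mreg, which encodes melanoregulin, with a peak in 15 of 18 regions against 8.37 from width and 9.53 from width and fold. Fos, a subunit of AP-1, had 13 of 15 against 9.67, Trio, which encodes a guanine exchange factor, 8 of 8 against 4.57, Tnfsf10, which encodes the death ligand TRAIL, 7 of 9 against 3.76, and Dock10 22 of 34 against 19.01. With fold matched as well, the expected counts were 10.2 for Fos, 5.46 for Trio, 5.13 for Tnfsf10 and 15.98 for Dock10. The genes at this end were picked by the difference from width, so their excess follows in part from the choice. Tex14, Fbxo11 and Acot1 belonged there as well. Gpr137b had 8 of 19 against 1.38 and Ero1lb 9 of 24 against 3.36, but with fold matched the expected counts were 9.10 and 10.03, so the excess turned to a deficit. Both genes lie on chr13, and their regions were narrow, with medians of 256 and 262 bp, with median replicate 1 folds of 11.5 and 10.6.

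The 10 widest regions without an Active Motif peak lay nearest Kmt5c, Plek, Tmed10, Nampt, Spint1, Gcnt1, Relt, Tg, Timm22 and Id2. The first 7 are all the regions without a peak in width group 10. Their replicate 1 folds ranged from 5.77 to 12.7 and their replicate 2 folds from 9.09 to 19.4, where the medians of that group with a peak were 36.6 and 38.1. The region nearest Plek, a phosphoprotein of haematopoietic cells, measured 4274 bp at chr11:16990865-16995138 with folds of 5.77 and 9.09, and replicate 1 covered 11.8% of it. Spint1, a serine protease inhibitor, lay nearest to 3994 bp at chr2:119239527-119243520, with 11.9 and 19.4. Of the 10, 6 lay in introns and 4 between genes, and the one at Tg alone was proximal.

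In the 3 narrowest width groups, the regions with the highest Active Motif fold included several whose fold there was above that of both Cell Signaling libraries. The regions were picked by that fold, so its height beside the others follows in part from the choice. The highest, in an intron at Bckdhb (chr9:83926958-83927454), had 28.3 in the Active Motif library and 4.83 and 9.83 in replicates 1 and 2. There the Active Motif library overlapped 99 of 497 bp, and near Tmx4 69 of 264 bp, while a fold belongs to the whole peak. The promoter region of Dtnbp1 (chr13:45002143-45002914), with 28 CpG, had 21.3 against 6.53 and 12.0. Near Tmx4 (chr2:134690003-134690266) the folds were 19.3, 5.38 and 3.59, and near Sgms2 (chr3:131475194-131475389), where the window is 100% repeat, 22.5, 14.2 and 17.7. In the other 6 the Active Motif fold was below both others, as at Hfe2 with 21.6, 48.8 and 41.8 and at Snx16 with 20.9, 22.0 and 38.4. The region at Bcl2a1d belongs to a family of near-identical genes and is uncertain.

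At the edge of the rule, the smallest overlap that counted was 7 bp, and 59 regions were overlapped by under 100 bp. Of regions without a peak the nearest lay 3 bp from one, 56 lay within 100 bp and 15.7% within 1 kb, and the median distance was 6.80 kb. Nearly all Active Motif peaks fell in shared regions, 35982 or 98.9%. Of the 382 that did not, 24.9% were proximal against 42.4% of the rest, with a median fold of 4.27 against 6.02. The strongest of them, at a fold of 7.23, lay nearest Ergic1 at chr17:26539557-26539785 in sequence without a peak of either Cell Signaling library.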

How the data were processed

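H3K27ac peaks of 3 HT-ChIPmentation libraries of AMs were analysed. Per the methods of the study, the authors trimmed reads with cutadapt, aligned them to mm10 with Bowtie2, removed duplicates, filtered with SAMtools and called peaks per library with MACS3 against input at a q-value of 0.05. The submitters' processing notes also name CASAVA and bcl2fastq 2.20.0.422. The deposited lists give, per peak, a position, a fold (a ratio over local background), the −log10 of the p-value and of the q-value, a score derived from the q-value and a summit offset, with no read counts, so the depth of each sample was not used here.

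Peaks on 20 chromosomes were merged, counted and annotated in Python 3.11.15 (pandas 2.3.3, numpy 2.4.6, scipy 1.17.1) with the GENCODE vM21 basic set. The TSSs were the transcript starts and gene 5′ ends of protein-coding genes, and a region was assigned to the nearest. Expected counts are sums of the shares of the regions' width groups. Wilson intervals, Mantel-Haenszel odds ratios with Robins-Breslow-Greenland intervals and group-weighted differences were used, and their code was tested on simulated data. Named regions were the 10 widest without a peak and, in the 3 narrowest width groups, the 10 with the highest Active Motif fold. Named genes were the 10 lowest and 10 highest by observed minus expected count among genes with at least 8 regions, list members whose promoter had no Active Motif peak, first members of each list and genes named in the study. The members, lists and tests were chosen with earlier results of these data known. No unmapped columns were present, and 1 region of the rule for sequences is not reported here. Alternatives covered the matched property, the overlap, the q-value, the TSS set and limit, and each Cell Signaling replicate left out.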

Additional observations from a re-analysis of the deposited data

How the results depend on the processing

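Odds are given here as log2 ratios, and CpG differences as numbers per window. The share of regions with an Active Motif peak was 63.1% at a q-value of at most 1e-05 and 73.0% with the same number of strongest peaks per library, and 37.6 to 38.3% over the peaks of 1 Cell Signaling replicate with the other left out. The proximal odds, 1.89 as reported, were 0.28 at matched fold, 0.79 with width crossed with fold and 0.78 with CpG, 2.22 and 1.17 with proximal limits of 1 and 10 kb, and 2.14 for any base within 1 kb of a TSS. With a replicate left out they were 1.25 to 1.88, the lower without replicate 2. The CpG difference, 5.60 as reported, was 1.74 at matched fold, 2.62 with width crossed with fold, 5.98 with equal numbers of peaks and 3.75 to 4.66 with a replicate left out. Alternatives chosen after seeing the data gave proximal odds of 0.39 with width, fold and CpG matched, and 0.24 and 0.89 with the fold of replicate 2 and 1, with CpG differences of 1.69 and 3.20 for the last 2. The cause of these shifts was not tested. The proximal odds, the CpG difference and the ratios of the AM core and cell cycle lists kept their direction. The share has no direction to keep and ranged from 37.6% to 73.0%. Differences of some motifs and genes turned, as given beside them. The interval of the AM core ratio held 1 in 8 of 16 alternatives, and that of the cell cycle ratio in 15 of 16, the exception being the q-value of at most 1e-05 (log2 -0.32). No paired analysis was possible because the peak lists carry no test and the inputs that share replicate numbers have no peak list. The lists hold no read counts, so whether a missing Active Motif peak reflects depth could not be examined.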
